A study of Mytilus galloprovincialis with 40 samples.

Results

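The clones described here are the 115 of 1920 cDNA clones of a mussel array whose relative mRNA abundance in the female digestive gland differed among months and was highest in late winter or early spring. A clone was taken where the moderated F test of limma over the 11 month coefficients gave a Benjamini-Hochberg p below 0.05 over all clones, and where the highest of its 12 fitted months was February, March or April. The highest month was February in 35 clones, March in 31 and April in 49. These fitted values chose the clones, so every level, difference and count of calls below is a description and none is offered as a test of the seasonal peak.

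The animals were wild female *Mytilus galloprovincialis* of the Bizerta Lagoon, Tunisia, sampled in each month from May 2007 to April 2008, with no treatment; their ages are not given in the labels. RNA from the digestive gland of 1 female was set on each array against RNA from 1 female of the preceding month, in Cy3 and Cy5, and the 12 steps form a closed ring because May 2007 was set against April 2008. The steps into February, March, April and May had 4 arrays each and the other 8 steps had 3 each, 40 arrays in all. The labels do not say whether an animal was used on more than 1 array, so the p-values measure the spread between these arrays, and each month stands for the few females taken on its sampling occasion.

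The digestive gland is the main organ of digestion, absorption and metabolic storage in bivalves, and it takes up much of what the animal filters from the water. Mussels of temperate waters build up reserves when food is plentiful and draw on them while the gonad grows and ripens, and in many populations spawning falls in winter and spring. Digestive gland mRNA is therefore followed over the year as a picture of feeding, metabolism and reproductive state. The files name the clones only by the plate and well of the clone library and give each the description unknown, and 0 of these codes matched an entry of the reference's gene table. Gene names, pathway members, markers of the tissue or of other cell types and sequences were for that reason not analysed here.

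The share of clone spots that exceeded the local background by 2 SD in both dyes ranged from 13.6% to 78.4% among the arrays. One array, the first of the Apr/Mar step, had ratios of the opposite sign to its 3 companions, with r across the 115 clones between -0.87 and -0.84, whereas the companions correlated with one another at 0.84 to 0.90. Counts for the season, for months above January and for the Apr/Mar and May/Apr steps are given with this array as labelled, left out and sign-turned. Fitted levels are given as labelled only. With the array left out 152 clones met the rule, and with its sign turned 147. Of the 115 clones, the highest month was then February in 29, March in 30 and April in 55 with the array left out. With its sign turned these counts were 26, 31 and 51. In a bulk tissue a change in mRNA per cell and a change in the share of a cell type cannot be told apart.

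The 115 clones made up 5.99% of all clones and were among 719 clones that passed the F test (37.4% of all clones). Without the F test, 324 clones (16.9%) had their highest fitted month in February, March or April. Just inside the F threshold lay 2 clones with an adjusted p of 0.0462 each, and just outside lay 2 clones with 0.0556 and 0.0570. By highest month, the 2 closest clones inside led their best month outside February to April by 0.0014 and 0.0027 on the log2 scale. The 2 closest clones outside had April behind October by 0.00056 and February behind August by 0.00083. These 4 differences are far below their SEs of 0.15 to 0.46, so at this edge the choice of month rests on differences smaller than the error.

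Levels are given as log2 values relative to each clone's own mean of the 12 fitted months. The median level over the 115 clones was 0.07 in January, 0.28 in February, 0.27 in March and 0.35 in April. It was -0.07 in May and -0.17 in June, its lowest value, and lay between -0.13 and -0.05 from July to December. February, March and April were all above the clone's own mean in 86 of the 115 clones, and they were the 3 highest months in 26. The 3 groups had different shapes around the same season. Clones highest in February stood at a median of 0.14 in January, 0.46 in February, 0.21 in March and 0.19 in April. In May and June of 2007 they stood at -0.25 and -0.39. Clones highest in March stood at 0.10 in January, 0.20 in February, 0.50 in March and 0.33 in April, with the lowest median of -0.21 in November. Clones highest in April stood at 0.02 in January, 0.15 in February, 0.20 in March and 0.46 in April, with the lowest median of -0.22 in July. The median of the February group was thus lowest in June and that of the March group in November. By clone, June was the lowest month in 10 of the 35 February clones. In the March group November was the lowest month of 6 of 31 clones, as was June.

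**Figure D1:**
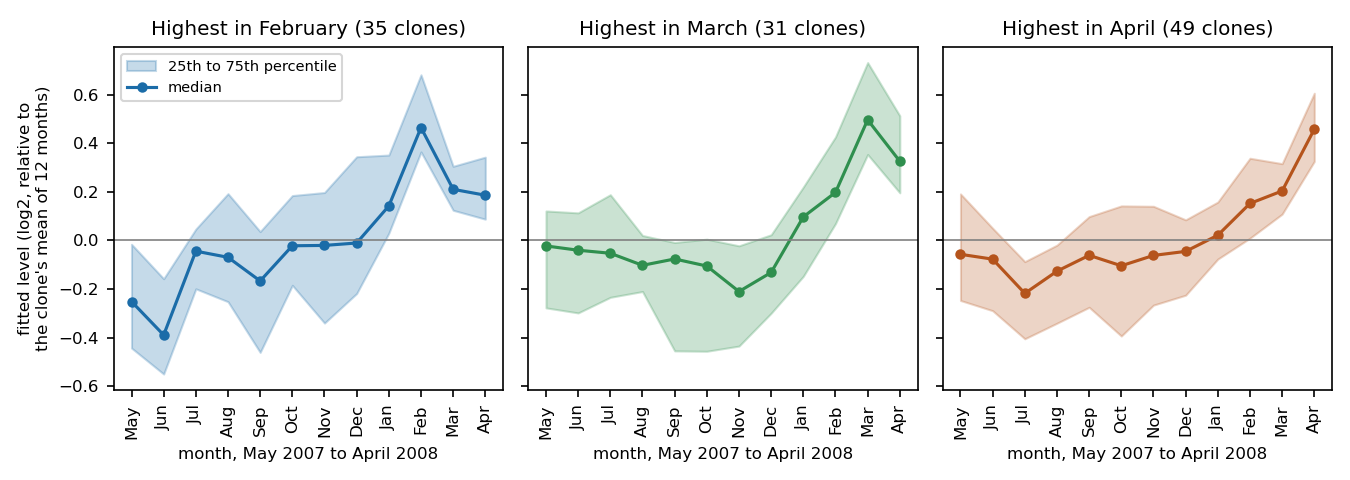
Fitted monthly level (log2, relative to the clone's mean of 12 months) of the clones highest in February (35), March (31) and April (49). Points joined by lines are medians and shaded bands run from the 25th to the 75th percentile; the medians reach 0.46, 0.50 and 0.46 in the month that defines each group.

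The distance between the highest and the lowest month had a median of 2.04-fold over the 115 clones, between 1.36-fold and 44.6-fold. The 44.6-fold is that of Myt01-007F07 and rests on a July level on which its arrays differ. It was at least 2-fold in 61 clones and at least 4-fold in 8. The other 604 clones that passed the F test had a median of 2.08-fold. In 8 of the 115 clones no array of the lowest month was above background, so their lowest level is only a bound, and without them the median was 2.11-fold over 107 clones. In 64 clones every array of the lowest month was above background, and in the remaining 43 some were.

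The lowest month fell between May and August in 54 clones, in September or October in 33, between November and January in 26, and in February in 2. Those 2, from plate 11, well F02, and plate 12, well E03, singled out after their values were seen, had their lowest month next to their highest, March. June was the lowest month of 20 clones, October of 19 and November of 16. These months were also common lows among the 719 clones that passed the F test. Lowest in May were 7.83% of the 115 and 9.46% of the 719, and in June 17.39% and 14.05%. For July the shares were 12.17% and 8.48%, and for August 9.57% and 11.96%. For October they were 16.52% and 10.99%, and for November 13.91% and 14.46%. Whether the 115 differ from the 719 in their lowest month was not tested. The second highest month was also February, March or April in 56 clones. Among the months outside that season the best was January in 21 clones, May in 16, October in 14 and November in 14.

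The order of neighbouring months was often within the error. The highest month exceeded the second by more than 1 SE of their difference in 26 of the 115 clones and by more than 2 SE in 5. It exceeded the best month outside February to April by more than 1 SE in 40 clones and by more than 2 SE in 9. For most of these clones the fit therefore did not separate the highest month from the next, nor from the best month outside the season, by more than 1 SE.

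On single arrays, the clearest common difference was that May 2007 lay below April 2008. No sample was taken after that April, so these arrays do not show a fall after it. The median log2 ratio of the 115 clones, May over April, was -0.56, -0.54, -0.34 and -0.51 on the 4 arrays, and between 9 and 19 clones lay above 0 on each. The fitted May/Apr difference had a median of -0.49 and was below 0 in all but 6 clones. The rise came in smaller portions. February over January, the 4 arrays had medians of 0.16, 0.09, 0.35 and 0.05, with 67 to 83 clones above 0. March over February, the medians were 0.06, -0.07, 0.05 and -0.04, and April over March they were -0.06, 0.04, 0.05 and 0.08. The median over all 1920 clones stayed within 0.03 of 0 on all 16 of these arrays.

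**Figure D2:**
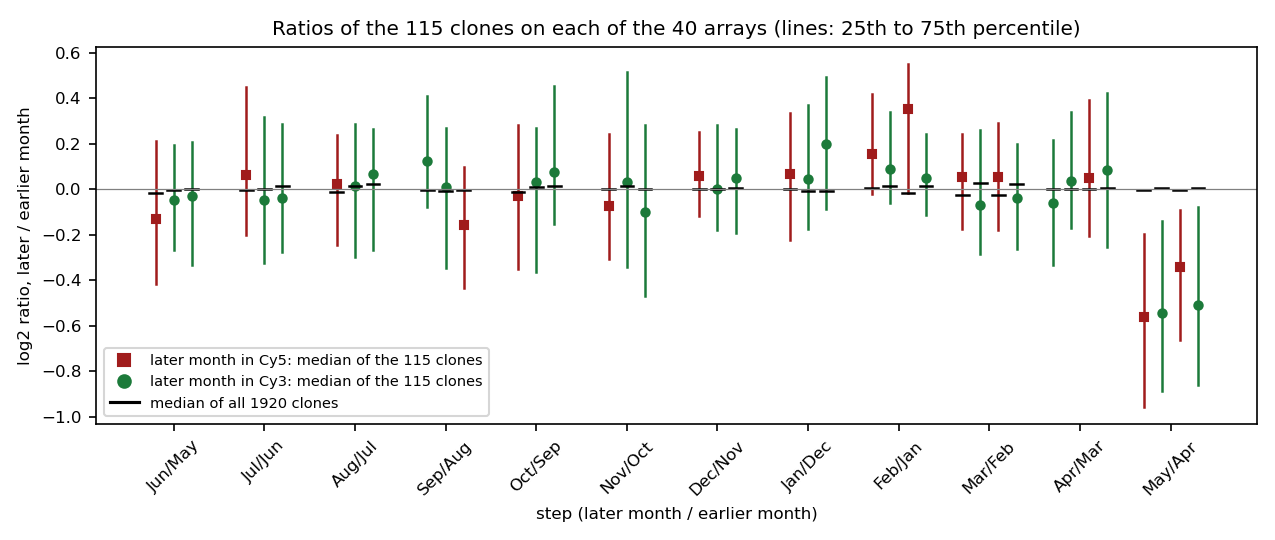
Log2 ratio of later over earlier month on each of the 40 arrays, in 12 steps; symbols are medians of the 115 clones (squares, later month in Cy5; circles, in Cy3), vertical lines their 25th to 75th percentile and black dashes the median of all 1920 clones. The 4 May/Apr arrays lie at -0.56 to -0.34, below all the others.

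The step between March and April divides the groups. On Apr/Mar arrays 2, 3 and 4 the clones highest in March had medians of -0.23, -0.23 and -0.29, and those highest in April had 0.33, 0.40 and 0.46. On the first array the signs were opposite, 0.21 for the March group and -0.33 for the April group. In the Mar/Feb step the March group had medians of 0.34, 0.40, 0.44 and 0.32, and the February group -0.20, -0.36, -0.22 and -0.31. Both dyes gave the same direction for these groups in the Mar/Feb step, but these same arrays had a part in choosing the groups. Over all clones, Mar/Feb arrays of opposite dye orientation correlated at r between -0.16 and -0.04. Those of the same orientation correlated at 0.44 and 0.78. Each step of 3 arrays had 1 array with the later month in Cy5. In Jul/Jun that array correlated with the others at -0.08 and -0.06 over the clones of all groups, against 0.91 between the others. In the same order, Aug/Jul gave 0.23, 0.26 and 0.87, Dec/Nov 0.34, 0.31 and 0.97, and Jan/Dec 0.19, 0.33 and 0.75. In Nov/Oct (0.78, 0.87 and 0.83) and Oct/Sep (0.40, 0.62 and 0.56) 1 opposite-dye pair was highest. June to January levels and lowest months rest partly on these steps. Whether dye goes with this was not tested.

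Single clones were called in limma where the adjusted p was under 0.05 over all clones and the log-odds B was above 0. Because the rule used these same arrays, nothing is read from the excess of calls among the 115 over the share of all clones. The mean of February, March and April was above the mean of the other 9 months in 13 of the 115 clones, against 0.833% of all clones. The median rise of these 13 was 1.91-fold and the highest 2.60-fold. The median difference over the 115 clones was 0.37 on the log2 scale, against 0.01 over all clones. Of the 115, 63 had an unadjusted p under 0.05. The share of all clones at that p was not computed, so nothing is read from this count. Leaving out Feb/Jan array 1 reduced the 13 to 7, and leaving out May/Apr array 1 or 4 reduced it to 8. February was above January in 14 clones (2.24% of all clones), March in 12 (1.46%) and April in 7 (1.25%). In all 3 months 6 clones were above January, against 20 of all 1920 clones. In at least 1 of them 18 were above January, against 48 of all clones. Without the first Feb/Jan array February was above January in 8. With the first Apr/Mar array left out the counts for the 3 months were 14, 13 and 12 (2.34%, 1.72% and 2.29% of all clones). With its sign turned they were 15, 13 and 12 (2.40%, 1.72% and 2.50%).

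May was below April in 46 of the 115 clones (4.06% of all clones lower), with a median fall of 1.82-fold and a highest of 3.54-fold, and above April in none (2.40% of all clones higher; 0 of the 115 higher at an unadjusted p under 0.05). Without the first May/Apr array 30 were lower. With the first Apr/Mar array left out 51 were lower (4.58% of all clones), and with its sign turned 52 (4.84%). This contrast uses the ring's closing step, which joins samples taken nearly a year apart, and without its 4 arrays May and April were linked only through the other 11 steps and 0 of the 115 was called. February above January and May below April were both called in 8 of the 115 clones, against 12 of all 1920 clones. Of the 115, the first alone was called in 6, the second alone in 38, and neither in 63. In the Mar/Feb step 8 clones rose (0.677% of all clones) and 1 fell (0.104%), the clone Myt01-010E02. Leaving out Mar/Feb array 2 or 4 reduced these 9 calls to 0, and leaving out array 3 reduced them to 4. In the Apr/Mar step limma called none higher (0.0521% of all clones) and none lower (0.00%), with 20 and 4 at an unadjusted p under 0.05. For these last 2 counts the share of all clones was not computed. With the first Apr/Mar array left out, 12 rose and 3 fell in that step, and with its sign turned 16 rose and 3 fell. Over all 1920 clones, 52 rose and 10 fell in that step with this array left out. With its sign turned 70 rose and 12 fell, against 1 and 0 as labelled. The calls in this step thus moved over the whole array and not only among the clones described here.

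Movements were also called outside the season. November was above October in 16 of the 115 clones (6.61% of all clones) and below it in 3 (3.02%). January was above December in 8 (1.15%) and below it in 2 (1.51%), and September was below August in 6 (3.12%). At least 1 of the 12 steps was called in 78 of the 115 clones (26.5% of all clones).

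In the February group, 2 clones had the largest F. Myt01-010E02 had log2 ratios of 1.79, 1.54, 1.45 and 1.33 on the 4 Feb/Jan arrays. All 4 were high, and none of the other steps of this clone reached these values. The fitted rise was 2.85-fold (1.51 ± 0.15, SE; limma adjusted p 6.34e-09). From February to March it fell, with ratios of -0.64, -0.76, -0.40 and -0.63 (fitted -0.62 ± 0.15, adjusted p 0.0318). Its level was 0.84 ± 0.16 in February, 0.52 ± 0.18 in July and 0.43 ± 0.17 in June, and lowest in September at -0.75 ± 0.18, so that 2 periods of the year were high. February and July differed by 0.31 ± 0.29. On the Aug/Jul arrays the ratios were 0.09, -1.29 and -1.18, so that the array with the later month in Cy5 stood apart from the other 2.

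Myt01-016C10 rose by 1.56, 1.42, 1.78 and 1.27 on the Feb/Jan arrays, all 4 on the same side. May was lower than April on all 4 May/Apr arrays, by between 1.41 and 1.83. The fitted changes were 1.43 ± 0.24 (adjusted p 0.000148) and -1.63 ± 0.24, or 3.10-fold down. Its levels were 1.21 ± 0.27 in February, 0.65 ± 0.26 in March and 0.52 ± 0.27 in April, against -1.13 ± 0.29 in September and -1.11 ± 0.27 in May. It was thus low in 2 separate months, with levels near its own mean in June to August. Its spots were above background in 95% of cases.

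In the March group, Myt01-009D10 rose at 2 points, into February and into March. Its Feb/Jan ratios were 1.36, 1.36, 1.34 and 1.12, and its Mar/Feb ratios were 0.57, 0.61, 0.86 and 0.56. All 8 values were above 0, and the spread within each step was small beside the change. For this clone the fitted Feb/Jan rise was called (limma adjusted p 2.67e-06) and the Mar/Feb rise was not (adjusted p 0.0790, B -0.62). It had been lower in January than in December on all 3 arrays, by 1.11, 1.32 and 1.15, and lower in October than in September on all 3, by 1.34, 1.32 and 1.19. Its level was 0.76 ± 0.18 in March, 0.63 ± 0.19 in April and 0.59 ± 0.20 in July, against -1.14 ± 0.19 in January and -1.34 ± 0.20 in October. July trailed March by 0.17 ± 0.32. With a loess curve per print-tip block this clone no longer met the rule.

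Myt01-005D07 rose in March itself, with Mar/Feb ratios of 0.91, 1.06, 0.92 and 0.69. For this clone the fitted Mar/Feb rise was not called (limma adjusted p 0.0605, B -0.14). On the Feb/Jan arrays it had 0.14, -0.12, 0.52 and -0.19, which lie on both sides of 0. On the May/Apr arrays May was lower than April by 1.58, 1.09, 0.65 and 1.86 (fitted 2.60-fold lower). Its level was 1.07 ± 0.23 in March, 0.65 ± 0.23 in April and 0.66 ± 0.25 in July, and lowest in September at -1.40 ± 0.25, a distance of 5.57-fold. On the Apr/Mar arrays it had 0.50 on the first and -0.74, -0.57 and -0.56 on the others.

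In the April group, Myt01-017C08 was lower in May 2007 than in April 2008 on every array, by 1.81, 1.63, 1.34 and 1.40. The fitted difference was 2.84-fold (-1.51 ± 0.15). Its Feb/Jan ratios were 0.80, 0.26, 0.57 and 0.25, all above 0 and higher on the 2 arrays with February in Cy5. Its level was 0.73 ± 0.16 in April, 0.70 ± 0.18 in September and 0.57 ± 0.16 in February, against -0.96 ± 0.17 in June. April and September differed by 0.02 ± 0.30, so this clone was as high in early autumn as in April within the error. It met the rule in 26 of the 40 fits that left out 1 array and under 12 of the 17 alternative settings, and not with a loess curve per print-tip block. On the 3 Oct/Sep arrays it fell by 1.04, 1.28 and 1.17.

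Myt01-001F04 was the named clone with the most even season. Its Feb/Jan ratios were 1.10, 1.18, 0.91 and 1.02 (fitted 2.13-fold, adjusted p 5.55e-06). Its Mar/Feb ratios of -0.17, -0.03, 0.06 and 0.15 lay on both sides of 0. In the May/Apr step it was lower in May than in April, by 0.49, 1.18, 0.69 and 0.87. Its levels were 0.59 ± 0.17, 0.63 ± 0.16 and 0.88 ± 0.17 in February, March and April, and the next month, November, stood at 0.37 ± 0.18. The difference of the 3 months from the other 9 was 0.93 ± 0.18 (adjusted p 0.00296). That call was lost with print-tip loess (0.74 ± 0.19, adjusted p 0.0447, B not above 0), with median centring (0.91 ± 0.33, adjusted p 0.440), without the closing step (0.66 ± 0.35, adjusted p 0.630) and on the arrays of either dye orientation alone (adjusted p 0.0945 for Cy5, and 0.0426 with B not above 0 for Cy3). By its F test and highest month it met the rule under each of the 17 alternative settings. The same held in all 40 fits that left out 1 array. Myt01-001E05 and Myt01-009C02, singled out after these counts were seen, met the rule as often. For the season against the other 9 months, limma gave Myt01-017C08 an adjusted p of 0.0203. Myt01-010E02, Myt01-016C10, Myt01-009D10, Myt01-005D07 and Myt01-007F07 had 0.0605, 0.0529, 0.0849, 0.0618 and 0.220, so the season was not called in them.

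**Figure D3:**
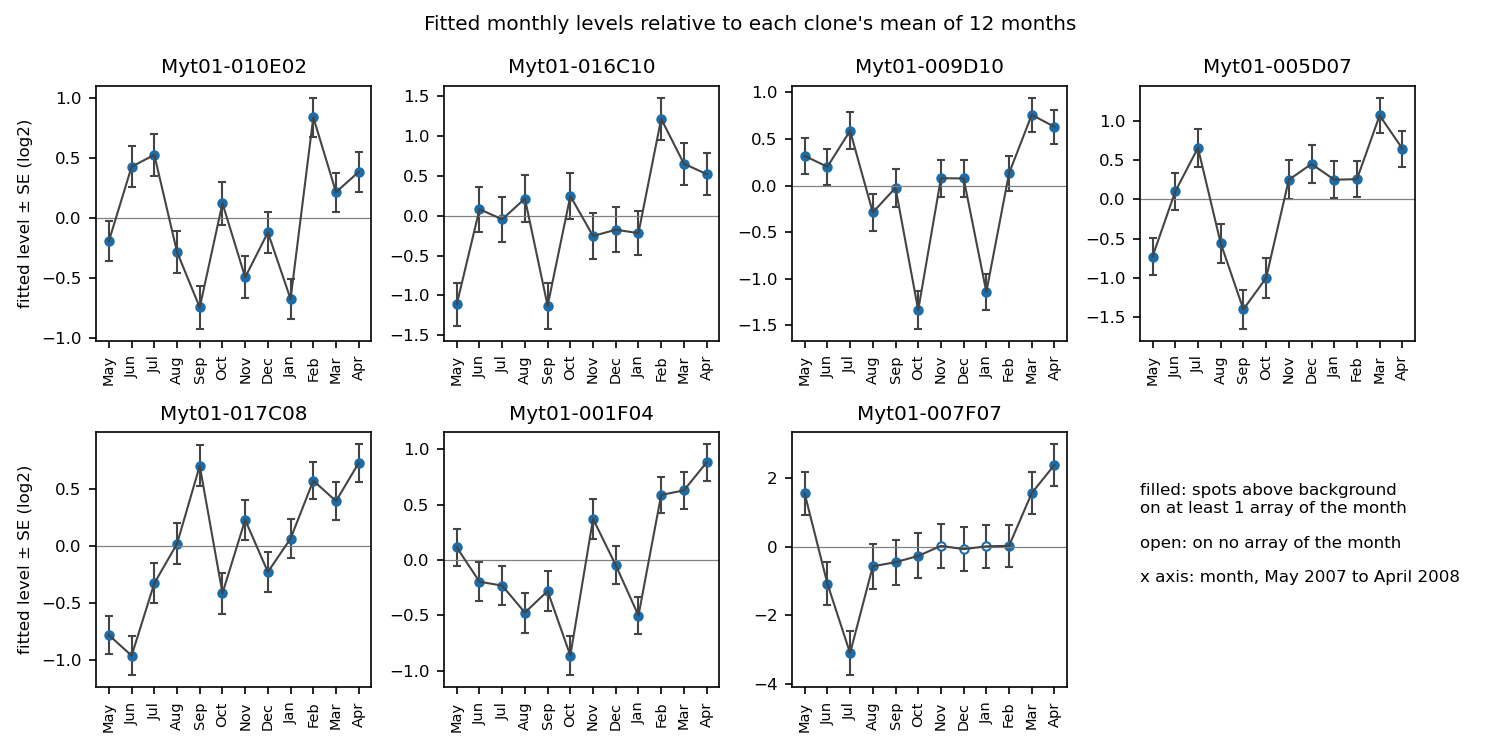
Fitted level of each named clone in each month (log2 ± SE, relative to its mean of 12 months). Open symbols mark months in which no array was above background for that clone; Myt01-017C08 is as high in September (0.70) as in April (0.73), and Myt01-010E02 is high in February and again in June and July.

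Myt01-007F07 had the largest distance between months, from 2.38 ± 0.60 in April to -3.10 ± 0.65 in July, or 44.6-fold. It rose on all 4 Mar/Feb arrays, by 1.30, 2.05, 1.45 and 0.85. On 3 of the 4 Apr/Mar arrays it rose by 1.58, 1.40 and 1.22, with -1.41 on the first. For this clone the fitted Mar/Feb rise was not called (limma adjusted p 0.239, B -2.72). In April its spots were above background on 8 of 8 arrays, in February on 2 of 8 and in July on 3 of 6, whereas in November, December and January they were above background on 0 arrays. The fitted levels of November, December and January were 0.02, -0.07 and 0.01, all above that of July. The 44.6-fold distance is therefore not a reliable range of abundance. The July value rests on arrays that differ. On the Jul/Jun arrays the ratios were 1.59, -4.34 and -3.80, and on the Aug/Jul arrays -0.07, 3.71 and 3.46. In both steps the array that stood apart was the first, with the later month in Cy5, and whether dye or animal goes with this was not tested. Its moderated residual SD was 1.15 on the log2 scale, the highest of the 115 clones.

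**Figure D4:**
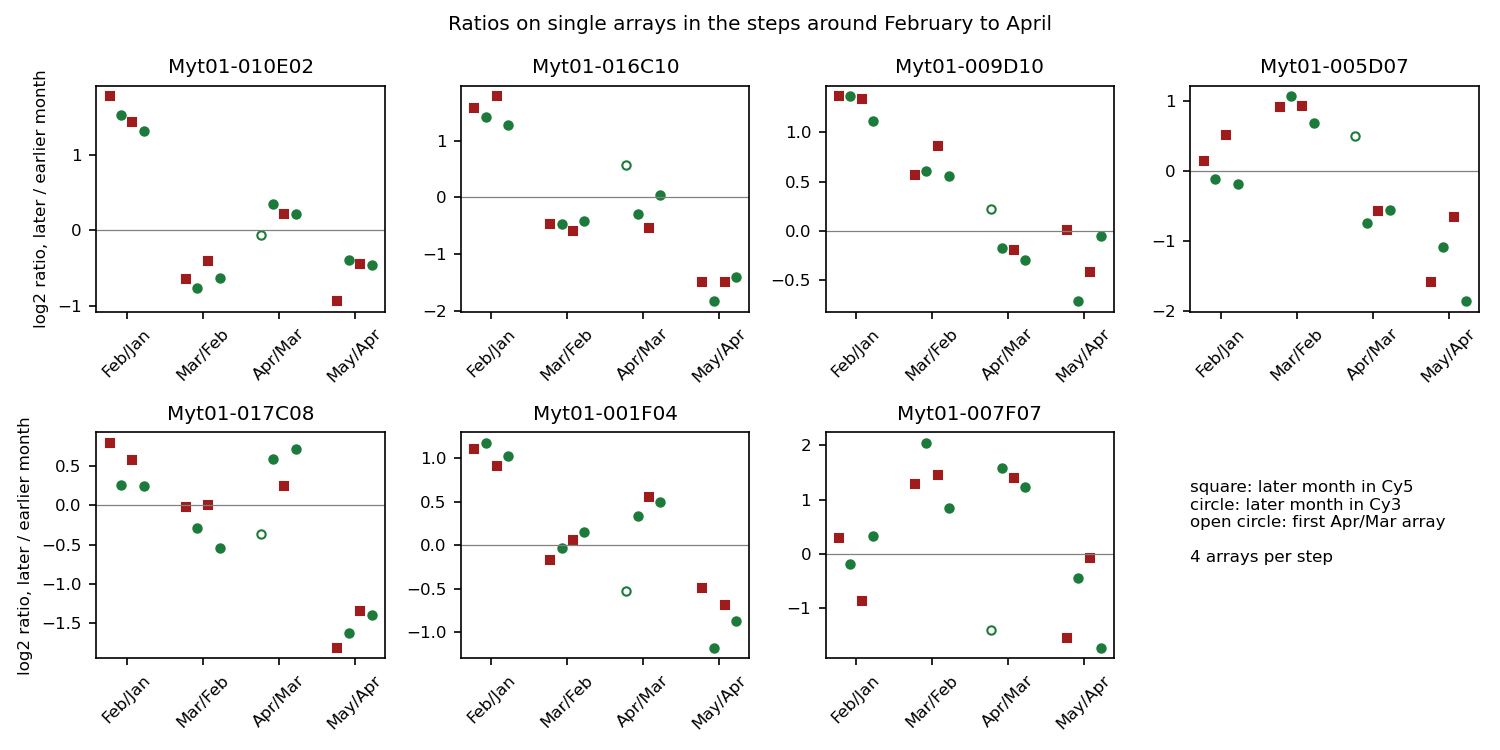
Log2 ratio of later over earlier month for each named clone on the 4 arrays of each step from Feb/Jan to May/Apr (squares, later month in Cy5; circles, in Cy3). The open circle is the first Apr/Mar array, which lies on the other side of 0 from its 3 companions for every named clone but Myt01-016C10.

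The 115 clones were brighter than the rest. Their mean log2 intensity over all arrays had a median of 8.46, against 8.15 for the other clones that passed the F test and 7.24 for all clones outside the 115. A median of 70.0% of their spots was above background, against 57.5% and 27.5%. The February group was the brightest, at 8.99, and the April group the dimmest, at 7.99. The 2 spots of a clone correlated over the 40 arrays with a median r of 0.88, the same value as in the other clones that passed the F test, and differed by a median of 0.10 on the log2 scale. The part of brightness in passing the F test was not tested.

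The clones were not spread evenly over the library. Of the 20 plates of 96 wells, plate 1 held 16, plate 9 held 12 and plate 5 held 10, whereas plates 19 and 20 held 0. Plates 19 and 20 were also the dimmest, with median log2 intensities of 6.08 and 6.04, and held 18 and 1 clones that passed the F test. Of the 16 clones of plate 1, 11 were highest in April. What the library's plates hold is not given in the sources used here.

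On the slide, 40 of the 115 clones lay in 2 of the 16 print-tip blocks, 21 in block 5 and 19 in block 13. The other 14 blocks, each also of 120 clones, held between 2 and 10. Over all 240 clones of these 2 blocks the median difference of February to April from the other months was 0.12 on the log2 scale, against -0.0042 in the other blocks. With a loess curve fitted per block it became 0.0092 and 0.0050. Of the 40 clones, 19 still met the rule with that curve, against 66 of the 75 clones elsewhere. The median difference of the 40 clones fell from 0.35 to 0.22 with the curve per block and that of the 75 clones from 0.39 to 0.38. Blocks 5 and 13 hold wells of plates 1, 5, 9, 13 and 17, as do blocks 7 and 15. Blocks 7 and 15 held 9 and 2 of the 115 clones and had medians over all their clones of 0.05 and -0.03. These blocks hold different wells of the plates. Whether plate content or position on the slide goes with the difference was not tested.

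**Figure D5:**
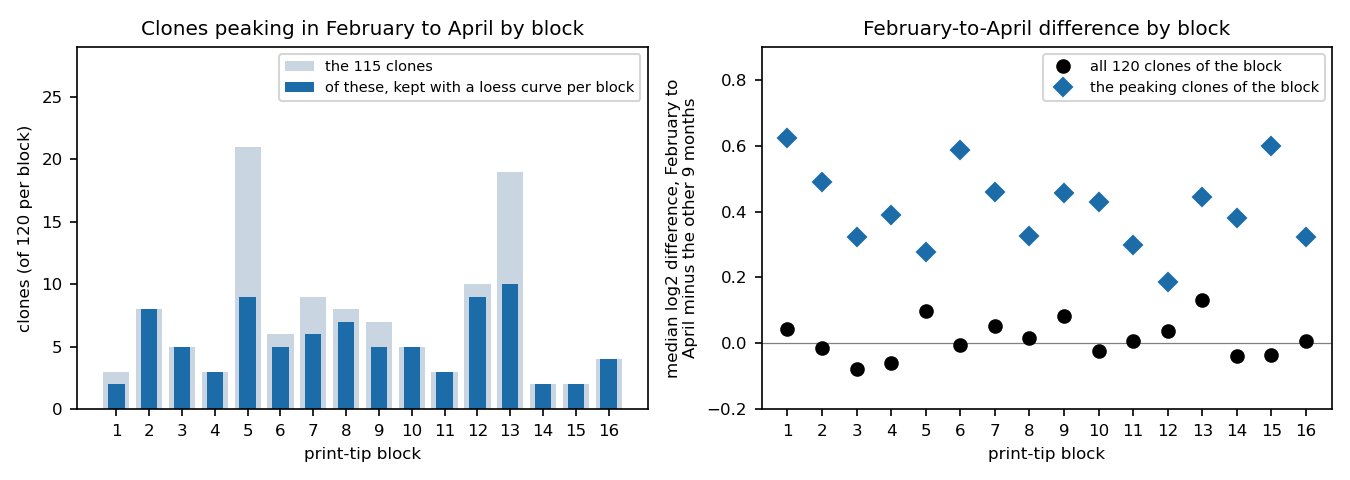
Left, number of the 115 clones in each print-tip block of 120 clones (pale bars) and those that still met the rule with a loess curve per block (dark bars). Right, median log2 difference of February to April from the other 9 months per block, for all clones (circles) and for the peaking clones (diamonds); blocks 5 and 13 hold 21 and 19 clones and have the highest medians over all their clones.

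The arrays of each dye orientation allow the season to be fitted separately, on 15 arrays with the later month in Cy5 (4 residual degrees of freedom) and 25 with it in Cy3 (14). The highest month fell in February to April in 73 of the 115 clones on the first set and in 74 on the second, in both for 37 and in neither for 5. The 3 months were above the other 9 in both sets in 98 of the 115 clones, with medians of 0.42 and 0.39, against 510 of all 1920 clones. Both sets had a part in choosing these clones. Chosen on the Cy3 set alone, 147 clones met the rule, and 58 of them are among the 115. In the Cy5 set, whose arrays had no part in that choice, 41 of the 147 (27.9%) had their highest month in the season, against 19.0% of all clones. Their median difference was 0.40 where they were chosen and 0.04 in the other set. Of the 21 clones chosen on the Cy5 set alone, 9 (42.9%) had their highest month in the season in the Cy3 set, against 18.6% of all clones, with medians of 0.65 and 0.61.

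The yearly profiles of the clones were alike only in part. Over all 6555 pairs of the 115 clones the median correlation of the 12 fitted months was 0.33, and it was -0.02 among the other clones that passed the F test. The rule itself draws the 115 together, since it fixes the highest month. Within the groups the median was 0.40 for February, 0.44 for March and 0.38 for April. A correlation above 0.9 was found in 31 of the 6555 pairs, and in 2511 of the 182106 pairs of the other clones that passed the F test. The clone most like Myt01-016C10 over the 12 months was also highest in February (r = 0.90), and the one most like Myt01-005D07 was highest in April (r = 0.92). For Myt01-001F04 the 2 most like were both highest in April (r = 0.94 each). The clone most like Myt01-017C08 was highest in September (r = 0.97) and that most like Myt01-010E02 was highest in July (r = 0.91), so neither belongs to the 115. For Myt01-009D10 the most like clone was highest in March (r = 0.86), and for Myt01-007F07 it was a clone that did not pass the F test (r = 0.95). The methods count fewer independent sequences than clones on the array, so that some clones may hold the same transcript, and which ones is not given in the sources used here. All these points share the same 40 arrays.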

How the data were processed

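Relative mRNA abundance was measured on 40 two-colour cDNA arrays, each holding 1920 clones in 2 spots among 4560 spots. The deposited scanner files hold the mean foreground and median background intensity of each dye, read by the authors without normalization. The authors also deposited a table of log2 ratios made with limma (version not given in the sources used here; 1 missing value), which was used as an alternative only. Intensities were corrected with normexp (offset 50) and normalized by global loess over the clone spots, the 2 spots were averaged, and ratios were turned to later over earlier month by the dye labels. A loop model with January at 0 was fitted in limma 3.58.1 (R 4.3.3), with 29 residual degrees of freedom. Its precision is limited by the number of arrays. Fit and rule were tested on simulated data. For each highest month the 2 clones with the largest F were named, with the clone of the largest distance between months. Where other clones are named, this was done after their values were seen. The members, rule and tests were chosen with earlier results of these data known. Alternatives were other background corrections and normalizations, a filter on dim clones, a dye term, array weights, correlated errors by replicate number, the authors' ratios, the ring without its closing step, 1 array with its sign turned, single spots, 1 dye orientation, adjusted p alone, and each array left out.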

Additional observations from a re-analysis of the deposited data

Results flagged for a closer look

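Each of the 4 steps with 4 arrays was searched for an array far from the other 3, by Dixon's criterion, in the median of the 115 clones, in the medians of the 3 groups and in the 7 named clones. This gave 6 cases in 44 sets of 4 arrays, and about 1 in 20 would be marked by chance.

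Of these, 3 lay on the first Apr/Mar array. The median of the clones highest in March was 0.21 there and -0.29 to -0.23 on the other 3. Myt01-005D07 had a log2 ratio of 0.50 there against -0.74 to -0.56, and Myt01-007F07 had -1.41 against 1.22 to 1.58. The cause was not tested.

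Myt01-009D10 had 1.12 on the fourth Feb/Jan array against 1.34 to 1.36 on the others, and 0.86 on the third Mar/Feb array against 0.56 to 0.61. Myt01-010E02 had -0.94 on the first May/Apr array against -0.46 to -0.40.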

How the results depend on the processing

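Of the counts of calls among the 115 clones and of clones meeting the rule, 104 of 143 values under the planned settings stayed within 1.5 times the count given above; the causes of the other moves were not tested. Counts are named here by their contrast, with the main count first.

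For clones meeting the rule (115) the values that moved were 55 with median centring, 220 with array weights and 21 on the Cy5 arrays alone. For the season against the other months (13) they were 8 with plain background subtraction, 4 with median centring, 28 with array weights, 7 on the second spot alone, 0 without the closing step and 0 on the Cy5 arrays. For February above January and the Feb/Jan step, which are 1 contrast (14), they were 7 without background correction, 7 with median centring and 6 on the Cy3 arrays. For March above January (12) they were 7 with subtraction, 5 without correction, 4 with median centring, 7 without the closing step and 5 on the Cy3 arrays. For April above January (7) they were 4 with subtraction, 3 without correction, 0 with median centring, 15 with array weights, 3 without the closing step, 12 with the first Apr/Mar array turned, 2 on the Cy5 arrays and 3 on the Cy3 arrays. For the Mar/Feb or Apr/Mar step (9) they were 3 without correction, 1 with median centring, 41 with array weights, 0 with the authors' ratios, 28 with the first Apr/Mar array turned and 1 on the Cy5 arrays. For May below April (46) they were 24 with subtraction, 18 with median centring, 0 without the closing step, 10 on the Cy5 arrays and 28 on the Cy3 arrays. Fewer arrays remain without the closing step, with 1 dye orientation and with the authors' ratios, where the third Dec/Nov and the fourth Mar/Feb columns held sign-turned values of another array and were left out; leaving out that Mar/Feb array alone also gave 0.

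Leaving out 1 array at a time gave 97 to 152 clones meeting the rule, 7 to 17 for the season, 8 to 15 for February (and the Feb/Jan step), 8 to 14 for March, 5 to 12 for April, 0 to 24 for the Mar/Feb or Apr/Mar step and 30 to 51 for May below April. The number of the 115 clones kept was 77 with plain subtraction (of 102 with values on all arrays), 80 without correction, 85 with print-tip loess, 46 with median centring, 98 with array weights, 60 without the closing step and 107 with the first Apr/Mar array turned. Aquantile scaling does not alter ratios.

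The sign-turned residuals of same-numbered arrays of neighbouring steps correlated at a median of -0.08 over 39 pairs, with 3 above 0.1. Arrays of other numbers had a median of -0.04 over 96 pairs, with 16 above 0.1 and a highest of 0.45. The replicate numbers thus showed no pairing of the arrays. Whether arrays of other numbers share an animal was not tested. With the replicate block as correlated errors 116 clones met the rule, 114 of them among the 115, and no count left its range of 1.5 times. The named clones' differences kept their direction wherever they could be fitted (Myt01-016C10 gave no value with plain subtraction, nor Myt01-007F07 with the filter on dim clones); the call of the season was lost in 11 and gained in 8 of 124 values, and in fits without 1 array lost in 3 and gained in 10.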
